A study of Rattus norvegicus with 24 samples.

Results

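The scaffold genes of the postsynaptic density were followed in the nucleus accumbens (NAc) of 14-day-old rat pups after oxycodone (oxy) exposure of the F0 dams. The 9 genes were Dlg1, Dlg2, Dlg3, Dlg4, Shank1, Shank2, Shank3, Homer1 and Dlgap1, and they were chosen by name from the 23950 genes listed in all 24 libraries. Each library came from 1 pup, the 4 pups of a group came from separate litters, and both male and female pups could be drawn. The deposited value is FPKM, the sequenced fragments of a gene scaled by its transcript length and by the size of the library, so that levels can be set side by side between genes.

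All animals were Sprague Dawley rats, and 6 groups of 4 pups were compared. The F1 IUO pups were born to dams gavaged with oxy from before mating until weaning, starting at 10 mg/kg per day for 5 days and climbing in steps of 0.5 mg/kg per day over 10 days to 15 mg/kg per day. Their exposure therefore ran through gestation and nursing. The F1 PNO pups were nursed by dams that received 15 mg/kg per day from birth to weaning only. The F1 SAL pups were the saline controls. F2 IUO, F2 PNO and F2 SAL pups were born to F1 females of the same lineage, which were not dosed themselves and were mated with males from outside the experiment. The NAc was cut from the brain with a matrix, so each library holds all cell types of that piece of tissue. Fewer cells of a type and less RNA per cell cannot be told apart in such samples.

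The postsynaptic density is a protein sheet under the membrane of excitatory synapses. In it, the membrane-associated guanylate kinases of the Dlg family hold glutamate receptors and adhesion molecules, the Dlgap (GKAP) proteins bind the guanylate kinase domain of the Dlg proteins, and the Shank proteins bind the Dlgap proteins. Homer proteins link Shank to group I metabotropic glutamate receptors and to calcium stores. In the NAc these synapses sit mostly on the spines of medium spiny neurons, where cortical, thalamic, hippocampal and amygdalar inputs arrive.

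Promoter sequence from RefSeq (build GRCr8) was found for 6 of the 9 genes. The 4 promoters below belong to the genes whose F1 IUO and F1 PNO libraries did not overlap, as described further on. Each line gives the 120 bases just before the RefSeq start of transcription, read on the strand of the gene from 5′ to 3′. Capitals mark matches to the CCAAT box (CCAAT, written ATTGG where it lies on the opposite strand) and to the E-box (CACGTG).
Dlg1, chr11:82607798-82607917, minus strand: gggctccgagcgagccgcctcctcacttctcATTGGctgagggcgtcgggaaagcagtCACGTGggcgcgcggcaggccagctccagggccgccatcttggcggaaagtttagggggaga
Dlg2, chr1:154539551-154539670, plus strand: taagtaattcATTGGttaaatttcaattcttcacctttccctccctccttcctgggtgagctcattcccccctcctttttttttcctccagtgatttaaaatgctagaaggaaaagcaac
Dlg4, chr10:55239664-55239783, plus strand: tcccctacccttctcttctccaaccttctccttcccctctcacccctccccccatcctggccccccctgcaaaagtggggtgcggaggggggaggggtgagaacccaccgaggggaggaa
Shank3, chr7:122448203-122448322, plus strand: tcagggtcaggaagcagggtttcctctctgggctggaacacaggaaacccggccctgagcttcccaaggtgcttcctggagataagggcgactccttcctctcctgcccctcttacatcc

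Both strands of the 250 bases upstream were searched for these 2 motifs and for the GC box (GGGCGG), the TATA box (TATAAA) and the CRE (TGACGTCA), of which the E-box and the CRE share the letters ACGT. The Dlg1 E-box lay 62 to 57 bases before the start, and 5.59% of all 33469 RefSeq promoters hold one. A CCAAT box was found in 34.0% of them, a GC box in 30.5%, a TATA box in 12.9% and a CRE in 1.59%. Shank3 had its CCAAT matches further upstream, beginning 199 and 179 bases before the start, and Dlg4 had no match to any of the 5 motifs. The 250 upstream bases were 69.2% G or C in Dlg4 and 66.4% in Dlg1, against 56.0% in Shank3, 42.4% in Dlg2 and a median of 51.2% over all promoters. The match is one of letters only, and the transcripts behind the deposited FPKM may start elsewhere.

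The tissue was checked by its markers before any comparison. All 16 striatum markers were above 0 in all 24 libraries, with the dopamine and cAMP phosphoprotein Ppp1r1b between 167 and 549 FPKM and the receptor Drd2 between 15.8 and 69.2 FPKM. Bcl11b had the lowest median of them, 1.47 FPKM, and ran from 0.05 to 28.45 FPKM. Markers of neighbouring tissue were also present, and most of those of cortex and thalamus were above 0 in all 24 libraries too. A level above 0 therefore does not by itself mark the tissue as striatum. The 11 cortex markers summed to between 38.1 and 427 FPKM per library, the 10 thalamus markers to between 86.1 and 499 FPKM and the 9 choroid plexus markers to between 6.08 and 12300 FPKM. Summed over all genes, a library held between 535866 and 766781 FPKM, of which mitochondrially encoded genes took between 17.0% and 41.8%. Read depth is not known from these files, and counting error cannot be stated.

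F2 PNO replicate 1 stood apart from the other libraries. It held the lowest value of 7 of the 9 scaffold genes, the largest summed FPKM, the largest mitochondrial share and the weakest correlation with the median library (r = 0.925, against 0.941 in the next lowest, F2 IUO replicate 4, and up to 0.977). Its 9 oligodendrocyte markers summed to 3976 FPKM, the largest sum of the 24 libraries, and its 9 pan-neuronal markers to 1242 FPKM, the smallest. The part of these differences in the scaffold values was not tested, and the comparisons and correlations that use this library are given with and without it.

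Dlg4, which encodes PSD-95, the main Dlg protein of mature excitatory synapses, had the highest level of the set, at 238 FPKM ± 40.9 (SD, n = 24), above 98.7% of the genes with a mean above 0 FPKM. Shank1 averaged 77.2 FPKM and Shank3 44.6 FPKM. Dlgap1 followed at 22.7 FPKM, Dlg2 at 22.6 FPKM and Dlg3 at 17.5 FPKM. Dlg1, Shank2 and Homer1 were the lowest, at 11.3, 9.88 and 7.23 FPKM. Dlg4 was above Shank1 in 24 of 24 libraries, Shank1 above Shank3 in 22, Shank3 above Dlgap1 in 24, Dlg3 above Dlg1 in 23 and Shank2 above Homer1 in 22. Dlgap1 and Dlg2 could not be ordered (13 of 24 libraries), and the order was also loose between Dlg2 and Dlg3 (17 of 24) and between Dlg1 and Shank2 (15 of 24). Between its lowest and highest library Homer1 spread 18.02-fold, Dlg2 9.39-fold, Dlg4 2.06-fold and Dlg1 1.99-fold. With F2 PNO replicate 1 left out the spread was 3.14-fold for Homer1, 3.32-fold for Dlg2, 1.62-fold for Dlg4 and 1.99-fold for Dlg1, so both ends of this order rested on that library. The gene value sums all transcripts of a gene, between 1 for Dlg2 and 8 for Shank3, so the short activity-induced form of Homer1 and the long scaffold forms are not separated.

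**Figure D1:**
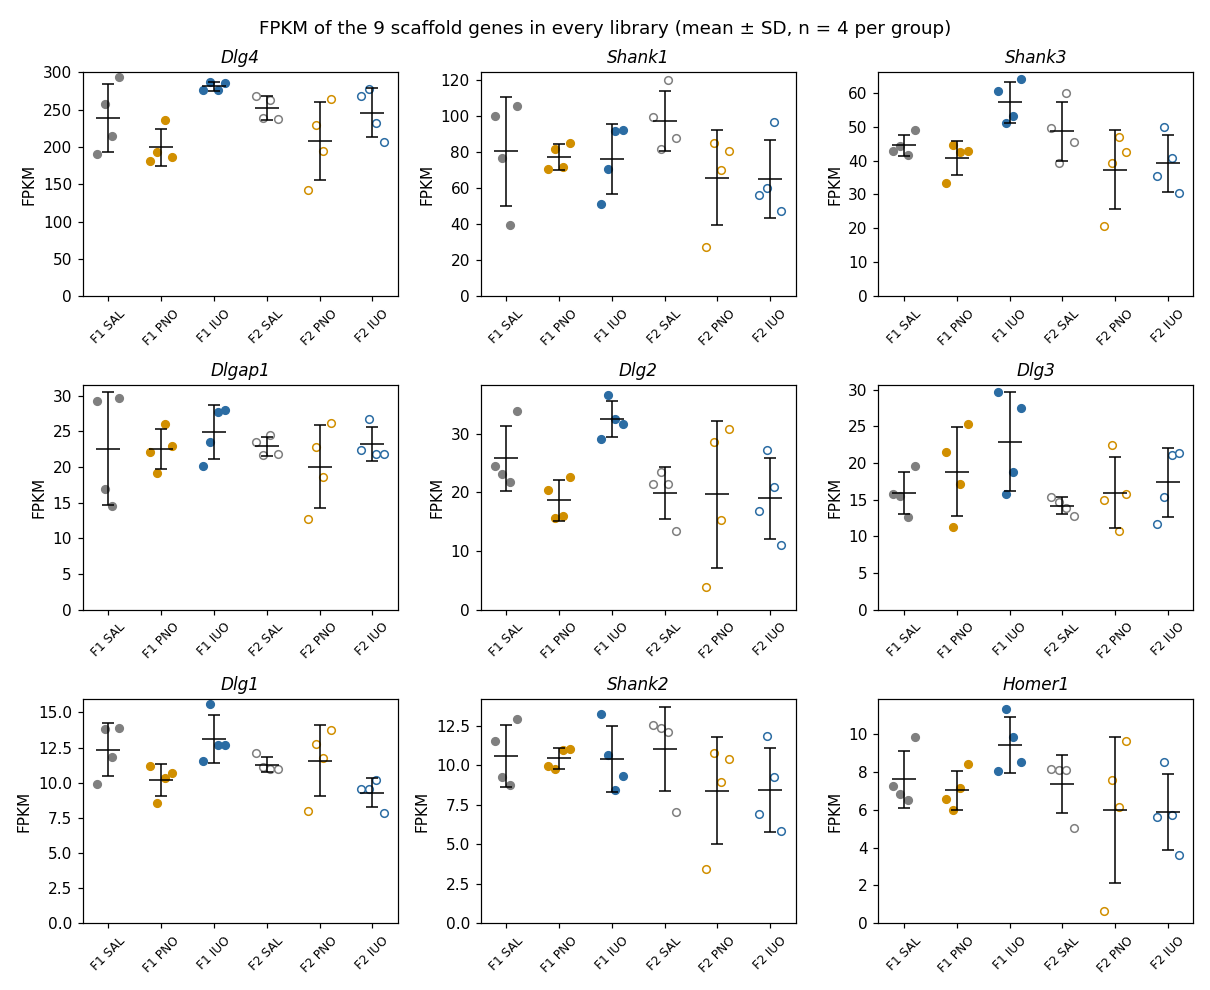
FPKM of each scaffold gene (y axis, from 0) in the 24 libraries, by group on the x axis. Points are libraries, filled for F1 and open for F2, and bars give the mean ± SD of 4 libraries. All genes but Shank1 and Shank2 have their highest mean in F1 IUO, and the lowest F2 PNO point of 8 of the 9 panels is replicate 1.

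Among the Dlg genes, Dlg2 had group means from 18.7 FPKM in F1 PNO to 32.5 FPKM in F1 IUO. It encodes PSD-93, a close relative of PSD-95. In the 4 F1 IUO libraries it stood at 29.2, 36.6, 32.6 and 31.6 FPKM, in the F1 PNO libraries at 20.4, 15.6, 15.97 and 22.7 FPKM, and in the F1 SAL libraries at 24.5, 23.1, 21.7 and 33.9 FPKM. All F1 IUO libraries were above all F1 PNO libraries, and 1 F1 SAL library reached into the F1 IUO range. In F2, Dlg2 was at 21.5, 23.4, 21.4 and 13.4 FPKM in SAL, at 3.90, 28.7, 15.3 and 30.8 FPKM in PNO and at 16.8, 27.3, 20.9 and 11.02 FPKM in IUO. The 3 F2 groups overlapped throughout.

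Dlg4 in F1 IUO had the smallest spread of the 54 sets of 4 libraries (9 genes in 6 groups). Its F1 IUO libraries were at 277, 287, 276 and 286 FPKM, its F1 PNO libraries at 181, 194, 236 and 187 FPKM and its F1 SAL libraries at 190.5, 257, 215 and 293 FPKM. The F1 IUO values varied by 2.02% (coefficient of variation), against 19.1% in F1 SAL and 12.5% in F1 PNO. In F2, Dlg4 was at 268, 239, 263 and 237 FPKM in SAL, at 143, 229, 194 and 265 FPKM in PNO and at 269, 278, 232 and 206 FPKM in IUO.

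Dlg1 encodes SAP97, which is found along the trafficking route of AMPA receptors as well as at the synapse. It was at 11.6, 15.6, 12.7 and 12.7 FPKM in F1 IUO, at 11.2, 8.57, 10.3 and 10.7 FPKM in F1 PNO and at 9.88, 13.8, 11.8 and 13.9 FPKM in F1 SAL. In F2 it was at 9.53, 9.58, 10.2 and 7.82 FPKM in IUO, below each of the F2 SAL libraries at 12.1, 11.1, 10.96 and 10.96 FPKM. Dlg3, which encodes SAP102, a form prominent in young neurons, ranged from 15.7 to 29.6 FPKM in F1 IUO, from 11.3 to 25.4 FPKM in F1 PNO and from 12.7 to 19.6 FPKM in F1 SAL. Its F2 libraries lay between 10.8 and 22.4 FPKM.

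Shank3 stands at the base of the scaffold and is the Shank gene best known from neurodevelopmental disorders. It was at 60.6, 51.0, 53.3 and 64.0 FPKM in F1 IUO, above each F1 PNO library (33.3, 44.6, 42.6 and 42.7 FPKM) and each F1 SAL library (42.9, 44.4, 41.6 and 49.0 FPKM). In F2 it was at 49.7, 39.3, 59.8 and 45.5 FPKM in SAL, at 20.6, 39.3, 47.0 and 42.4 FPKM in PNO and at 35.5, 50, 40.8 and 30.4 FPKM in IUO, and the F2 groups overlapped. Shank1 ranged from 39.4 to 106 FPKM in F1 SAL, from 70.7 to 85.2 FPKM in F1 PNO and from 51.5 to 92.3 FPKM in F1 IUO. In F2 it was at 99.7, 81.8, 120.1 and 87.9 FPKM in SAL and at 56.3, 59.9, 96.7 and 47.5 FPKM in IUO, where 3 of 4 IUO libraries were below all SAL libraries. Shank2 averaged 10.6 FPKM ± 1.96 in F1 SAL, 10.4 FPKM ± 0.678 in F1 PNO and 10.4 FPKM ± 2.10 in F1 IUO (SD, n = 4 each), and between 8.38 and 11.02 FPKM in the F2 groups.

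Homer1 was at 8.05, 11.4, 9.85 and 8.53 FPKM in F1 IUO, at 6.60, 6.01, 7.14 and 8.41 FPKM in F1 PNO and at 7.29, 6.83, 6.51 and 9.86 FPKM in F1 SAL. Here 3 of 4 F1 IUO libraries were above all F1 PNO libraries. In F2 it was at 8.15, 8.13, 8.14 and 5.04 FPKM in SAL, at 0.63, 7.60, 6.18 and 9.66 FPKM in PNO and at 5.63, 8.54, 5.74 and 3.62 FPKM in IUO. Dlgap1 had group means between 20.05 FPKM ± 5.79 (F2 PNO) and 24.9 FPKM ± 3.76 (F1 IUO), and all 6 groups overlapped.

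Each comparison was fitted with limma over all genes tested on log2(FPKM + 0.1), and a fold change on that scale slightly understates the change of low genes. No scaffold gene had an adjusted p under 0.05 in any of the 9 comparisons between groups or the 3 comparisons of effects between generations. The smallest adjusted p, 0.0761 (limma), was that of Dlg2 when F1 IUO was set against F1 PNO. The differences below are therefore values and not called changes, and the counts at an unadjusted p under 0.05 are set beside the share of all genes that reach it. As a second test, the exact two-sided permutation of 4 against 4 libraries can give no p below 0.0286. Of its 81 tests of a gene in a comparison, 9 reached that value, with a smallest adjusted p of 0.257. That p is reached only where the groups compared do not overlap, so the test repeats the overlap counts below. Its floor also keeps the adjusted p high, so the adjusted value decides nothing.

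In utero and postnatal exposure were compared directly in F1. Dlg2, Dlg4, Shank3, Homer1 and Dlg1 had higher levels in the IUO pups at an unadjusted p under 0.05, 5 of the 9 scaffold genes, against 16.5% of the 17306 genes tested in either direction and 10.1% in the higher direction. The libraries of 4 of the 9 did not overlap, as for 10.5% of all genes. The share of all genes with an adjusted p under 0.05 was 0.133%. Dlg2 was 1.74-fold higher in the ratio of mean FPKM (log2 fold change 0.81, SE 0.14, 95% interval 0.49 to 1.13). Dlg4 was 1.41-fold higher (0.50 on the log2 scale, SE 0.11, adjusted p = 0.1003, limma). Shank3 was 1.40-fold higher (0.49, SE 0.12, adjusted p = 0.132, limma). Homer1 was 1.34-fold and Dlg1 1.29-fold higher (adjusted p = 0.232 and 0.231, limma). Shank1 and Shank2 lay near 0, at -0.05 (95% interval -0.46 to 0.36) and -0.02 (-0.36 to 0.31) on the log2 scale, and Dlgap1 (0.14) and Dlg3 (0.29) had intervals that held 0.

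The median log2 fold change of the 9 genes was 0.36 between F1 IUO and F1 PNO, against 0.03 for all genes tested. Rescaling each library to its upper quartile moved both, to 0.24 and -0.08. It divides all genes of a library by the same factor, so the distance between the medians (0.32, against 0.33 as deposited) could hardly change and tests nothing. With this rescaling the split of all genes at an unadjusted p under 0.05 went from 10.1% higher and 6.41% lower to 5.34% higher and 11.2% lower. At that level were 3 scaffold genes in place of 5. The count was also 3 without F1 PNO replicate 2 and without F1 IUO replicate 2, fits for which the share of all genes is not given here. Dlg4 and Shank3 had an unadjusted p under 0.05 in all 17 alternative fits, Dlg2 in 16, Dlg1 in 11 and Homer1 in 9.

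Tissue markers differed between the same 2 groups, in which 16.5% of all genes had an unadjusted p under 0.05. All 10 thalamus markers were lower in the IUO pups, 7 with an unadjusted p under 0.05, and their sum ran from 86.1 to 324 FPKM in F1 IUO and from 213 to 499 FPKM in F1 PNO, with Lhx9 at 0 in 1 F1 IUO library. Of the 16 striatum markers, 15 were higher in F1 IUO, 10 with an unadjusted p under 0.05, with sums from 994 to 1380 FPKM in F1 IUO and from 649 to 910 FPKM in F1 PNO. The 9 pan-neuronal markers summed to between 1784 and 2159 FPKM in F1 IUO and between 2023 and 2548 FPKM in F1 PNO. Markers of oligodendrocyte precursors (115 to 134 FPKM against 75.7 to 99.4), of microglia (160 to 195 FPKM against 115 to 146) and of hypothalamus (142 to 221 FPKM against 57.6 to 94.2) had summed levels that were all higher in F1 IUO. Among the marker genes, the hypothalamus gene Avp had an adjusted p under 0.05 (log2 fold change 3.80, SE 0.54, adjusted p = 0.0468, limma). That call held in 2 of 17 alternative fits and in no fit that left out 1 library. With the mean of the thalamus or the striatum markers as a covariate, Dlg2, Dlg4 and Shank3 had an unadjusted p under 0.05 and Dlg1 and Homer1 did not. At that level were 2598 of 17306 genes with the thalamus covariate (1798 higher) and 2388 with the striatum covariate (1743 higher). The median of all genes rose from 0.03 to 0.14 and 0.13 in these fits. With the thalamus covariate Shank1 went from -0.05 to 0.41 on the log2 scale (SE 0.14, adjusted p = 0.274, limma).

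The partners of the scaffolds were described in the same comparison by lists set with earlier results of these data known. Of all genes, 16.5% had an unadjusted p under 0.05 there, and 10.1% were higher at that level. Of 19 scaffold relatives, 9 had an unadjusted p under 0.05, all higher in F1 IUO (median log2 fold change of the list 0.32), among them the Lin7 protein Lin7c (28.1 FPKM ± 4.64 against 18.8 ± 1.61), the actin regulator Baiap2 (log2 fold change 0.59, SE 0.16) and Dlgap2 (5.67 ± 0.739 against 3.35 ± 0.801). Of 19 enzymes and regulators of the density, 11 were at that level, all higher, and Ppp1r9a, which encodes the spine protein neurabin, rose (log2 fold change 0.94, SE 0.14, adjusted p = 0.0477, limma). Of 15 glutamate receptor genes bound by the scaffolds, 6 were at that level, all higher, and Grm5, the metabotropic receptor held by Homer, rose from 8.55 FPKM ± 1.47 to 16.9 ± 1.18 (adjusted p = 0.0468, limma). The AMPA receptor Gria1 stood at 35.1 FPKM ± 4.13 against 23.0 ± 5.75 (adjusted p = 0.145, limma). The calls of Grm5 and Ppp1r9a were not firm, since their adjusted p was under 0.05 in 3 and 2 of 17 alternative fits and reached 0.496 and 0.455. Leaving out any 1 of the 8 libraries ended the call of Ppp1r9a, and leaving out any but F1 PNO replicate 4 ended that of Grm5.

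The remaining synaptic lists were described in the same way, beside 16.5% of all genes at an unadjusted p under 0.05 (10.1% higher). The AMPA receptor auxiliary subunits lay near the first of these shares. Of 10 AMPA receptor auxiliary subunits 2 had an unadjusted p under 0.05, and of 18 postsynaptic adhesion genes 5, all higher in F1 IUO, with the neuroligin Nlgn2 at 74.5 FPKM ± 10.4 against 51.2 ± 5.43. Of 23 presynaptic genes, 6 were at that level, all higher. Of 9 genes of the inhibitory postsynapse, 3 were higher and 1 lower, and Lhfpl4, a partner of GABA-A receptors, rose (0.75 on the log2 scale, SE 0.11, adjusted p = 0.0468, limma). That call held in 2 of 17 alternative fits and in no fit that left out 1 library.

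**Figure D2:**
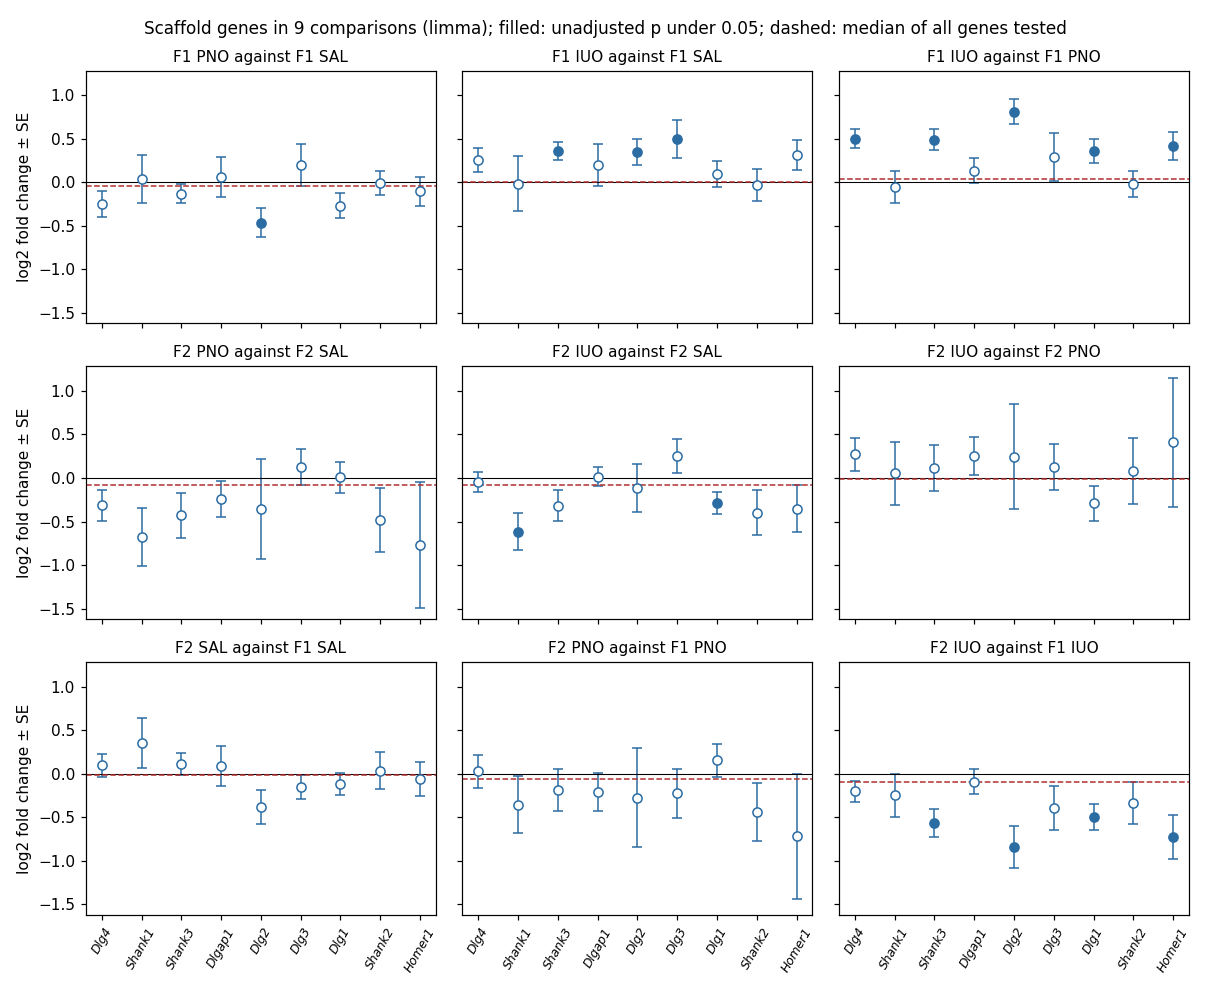
log2 fold change ± SE (y axis, limma) of the 9 scaffold genes (x axis) in 9 comparisons between groups. Filled points have an unadjusted p under 0.05, and the dashed line is the median of all genes tested. 5 points are filled for F1 IUO against F1 PNO, all above 0, and all 9 points lie below 0 for F2 IUO against F1 IUO.

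Against the saline pups of F1, IUO was higher and PNO lower for Dlg1, Dlg2, Dlg4, Shank3 and Homer1. Only Dlg2 had an unadjusted p under 0.05 on both sides, and Shank1 had the opposite signs near 0. These 2 comparisons and the one above share their libraries, so their values are given side by side only. Between F1 IUO and F1 SAL, 3 genes had an unadjusted p under 0.05, all higher in IUO, against 3.91% of all genes and 1.93% in the higher direction. They were Shank3 (1.29-fold, 0.36 on the log2 scale, SE 0.11), Dlg2 (0.35, SE 0.15) and Dlg3 (0.49, SE 0.22), each with an adjusted p of 0.999 (limma). The libraries of Shank3 alone did not overlap, as for 2.54% of all genes, and 0.0% of all genes had an adjusted p under 0.05, with 679 at an unadjusted p under 0.05. The median of the 9 genes was 0.25 against 0.01 for all genes. Upper-quartile rescaling gave 0.13 and -0.11, took Dlg1 from 0.09 to -0.03 and moved the split of all genes at that level from 1.93% higher and 1.97% lower to 0.911% higher and 3.92% lower. Of the tissue markers, 4 of 10 hypothalamus genes (summed level 142 to 221 FPKM against 93.9 to 143) and 2 of 3 blood genes were higher in F1 IUO at an unadjusted p under 0.05, and 9 of 11 cortex genes had a positive value (234 to 301 FPKM against 38.1 to 382), and their part in the scaffold values was not tested. The count of 3 was 5 without F1 SAL replicate 4, which held 7 of the 9 genes among their 4 highest values. It was 1 without F1 SAL replicate 1, 2 or 3 or F1 IUO replicate 4. The share of all genes in those fits is not given here, so these moves cannot be read as ones of the scaffold genes.

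Between F1 PNO and F1 SAL, only Dlg2 had an unadjusted p under 0.05 (25.8 FPKM ± 5.52 in SAL and 18.7 ± 3.44 in PNO, log2 fold change -0.46, SE 0.17, adjusted p = 0.295, limma), against 13.9% of all genes. The libraries of 0 scaffold genes were separate, against 8.27% of all genes, and 0.0% of all genes had an adjusted p under 0.05. Of the 9 genes, 6 were lower and 3 higher in PNO, and of all genes 43.6% were higher. The median of the 9 genes was -0.10 against -0.05 for all genes, but 0.02 without F1 SAL replicate 4. Median-of-ratios rescaling took Shank2 from -0.01 to 0.02. The count of 1 was 3 without F1 SAL replicate 1 and 0 without F1 SAL replicate 4 or F1 PNO replicate 3. For those fits the share of all genes is not given here, so the moves cannot be read as ones of the scaffold genes. The count was also 0 with thalamus or striatum markers as a covariate. With these covariates 783 and 1126 of 17494 genes were at that level, against 2438 without. All 10 thalamus markers were higher in the PNO pups, 8 with an unadjusted p under 0.05, with sums of 90.9 to 289 FPKM in F1 SAL. Of the scaffold relatives, 6 of 19 had an unadjusted p under 0.05, all lower in PNO, as had 6 of 19 enzymes and regulators and 4 of 15 glutamate receptor genes.

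In F2, IUO pups had lower Shank1 and Dlg1 than saline pups at an unadjusted p under 0.05. Shank1 averaged 65.1 FPKM ± 21.7 in F2 IUO and 97.4 ± 16.9 in F2 SAL (log2 fold change -0.62, SE 0.21, adjusted p = 0.543, limma). Dlg1 averaged 9.28 FPKM ± 1.02 and 11.3 ± 0.549 (-0.28, SE 0.13, adjusted p = 0.588, limma), and its libraries did not overlap. These were 2 of 9 genes at that level, against 8.49% of all genes, and 1 of 9 without overlap, against 5.11%. All genes with an adjusted p under 0.05 made up 0.0%. The median of the scaffold genes was -0.28 against -0.08 for all genes. As deposited, 7 of 9 were lower in IUO, and 39.6% of all genes were higher. With upper-quartile rescaling 8 of 9 were lower, and 30.4% of all genes were higher. This rescaling took Dlgap1 from 0.02 to -0.06. The split of all genes at an unadjusted p under 0.05 went from 3.52% higher and 4.97% lower to 1.90% higher and 7.98% lower. The count of 2 was 1 without F2 SAL replicate 1, F2 SAL replicate 3 or F2 IUO replicate 4, fits for which the share of all genes is not given here. The median was -0.15 without F2 IUO replicate 4, a library with 6 of the 9 genes among their 4 lowest values and with the most genes at 0 FPKM (7532). Of the 16 striatum markers, 15 were also lower in F2 IUO than in F2 SAL, 5 with an unadjusted p under 0.05, with sums of 514 to 1182 FPKM and 919 to 1239 FPKM. With these markers as a covariate, Shank1 and Dlg1 kept an unadjusted p under 0.05. So did 2548 of 17097 genes, 1982 of them lower, against 1452 without the covariate. Of the cortex markers, 5 of 11 were higher at that level (245 to 427 FPKM and 196 to 274 FPKM), and their part in the scaffold values was not tested.

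Between F2 PNO and F2 SAL no scaffold gene had an unadjusted p under 0.05 in limma, against 10.8% of all genes, and no gene's libraries were separate, against 7.01%. The share of all genes with an adjusted p under 0.05 was 0.00576%. The median of the 9 genes was -0.36 with all libraries, against -0.08 for all genes tested, and -0.04 against 0.02 without F2 PNO replicate 1. It was -0.07 with striatum markers as a covariate. With all libraries the largest difference was that of Homer1 (-0.77, SE 0.72). Without F2 PNO replicate 1, Homer1 was at 0.09 and Dlg2 went from -0.36 to 0.29, so their direction rested on that library. Rescaling moved the split of all genes at an unadjusted p under 0.05 from 3.97% higher and 6.83% lower to 6.88% and 4.43% (upper quartile) or 5.50% and 5.95% (median of ratios). Shank1 was lower in PNO with F2 PNO replicate 1 (-0.67, SE 0.33) and without that library (-0.29, SE 0.15), both as deposited. The count at an unadjusted p under 0.05 was 1 without F2 PNO replicate 2 (Shank1) and 1 without F2 PNO replicate 4 (Dlg4). How many of all genes reached that level in these fits is not given here.

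Between F2 IUO and F2 PNO, 0 scaffold genes had an unadjusted p under 0.05 in limma, against 7.07% of all genes, and libraries were separate for 0 of 9, against 4.74%. An adjusted p under 0.05 was found for 0.0% of all genes, with 1208 at an unadjusted p under 0.05. As deposited, 8 of 9 genes were higher in IUO, against 48.2% of all genes, and with upper-quartile rescaling 4 of 9, against 28.8%. That rescaling took the median of all genes from -0.01 to -0.17. Their split at an unadjusted p under 0.05 went from 4.59% higher and 2.48% lower to 1.53% and 7.18%. Without F2 PNO replicate 1 the median of the 9 genes went from 0.13 to -0.29 and that of all genes to -0.10, so the direction of the set did not hold without that library. Dlg1 was then lower in IUO (-0.46, SE 0.16, adjusted p = 0.593, limma), and it was the only scaffold gene of the 9 with an unadjusted p under 0.05, against 8.22% of all genes in that fit.

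**Figure D3:**
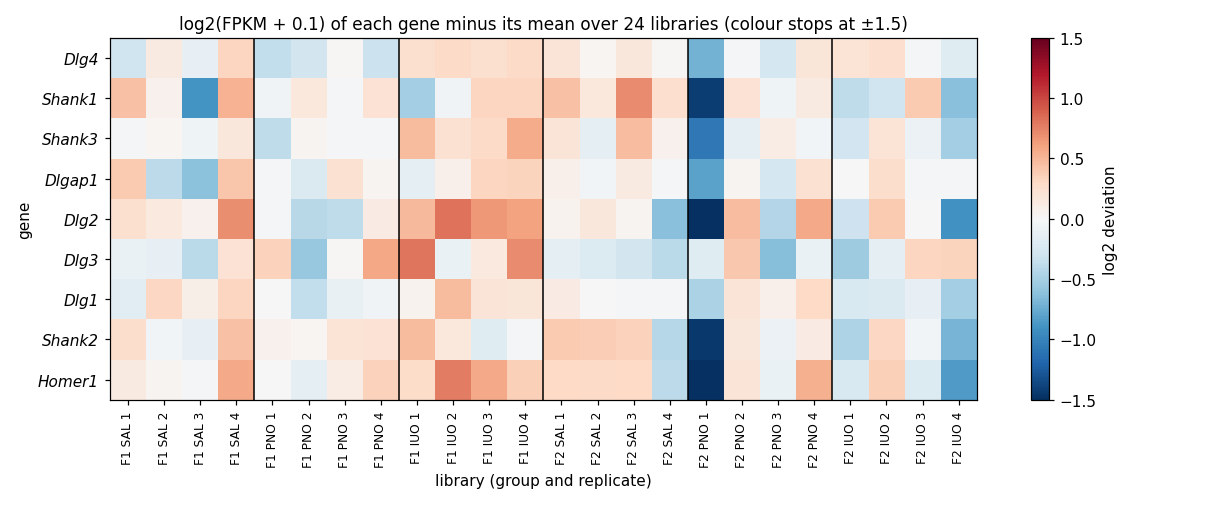
log2(FPKM + 0.1) of each scaffold gene (rows) in each of 24 libraries (columns, by group and replicate) minus the mean of that gene over all libraries. Red is above and blue below the mean, and the colour stops at 1.5 in both directions. The 4 F1 IUO columns are mostly red, and F2 PNO replicate 1 reaches -3.20 for Homer1 and -2.39 for Dlg2.

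Across generations, the IUO lineage was compared first. All 9 scaffold genes were lower in F2 IUO than in F1 IUO, under each of the 3 scalings. Of all genes tested, 41.4% were higher in F2 IUO as deposited. An unadjusted p under 0.05 was found for 4 scaffold genes, against 15.0% of all genes and 9.65% in the lower direction. Dlg2 averaged 19.0 FPKM ± 6.87 in F2 IUO and 32.5 ± 3.11 in F1 IUO (log2 fold change -0.84, SE 0.24, adjusted p = 0.236, limma). Shank3 averaged 39.2 ± 8.36 and 57.2 ± 6.10 (-0.56, SE 0.16, adjusted p = 0.236, limma). Homer1 averaged 5.88 ± 2.02 and 9.45 ± 1.48 (-0.72, SE 0.25, adjusted p = 0.251, limma), and Dlg1 9.28 ± 1.02 and 13.1 ± 1.72 (-0.49, SE 0.15, adjusted p = 0.236, limma). The libraries of Dlg1, Dlg2 and Shank3 did not overlap, as for 10.7% of all genes, and 0.0% of all genes had an adjusted p under 0.05, with 2537 at an unadjusted p under 0.05. The median of the 9 genes was -0.39, against -0.09 for all genes, and -0.25 without F2 IUO replicate 1.

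The lists of scaffold partners were counted in the same comparison, in which 15.0% of all genes had an unadjusted p under 0.05 (9.65% lower). The adhesion genes below lay near the first of these shares. An unadjusted p under 0.05 was reached by 8 of 19 enzymes and regulators, all lower, by 5 of 15 glutamate receptor genes, all lower, and by 7 of 19 scaffold relatives, 6 of them lower. It was reached by 3 of 18 adhesion genes and 3 of 9 genes of the inhibitory postsynapse, all lower, by 11 of 23 presynaptic genes, 8 lower and 3 higher, and by 0 of 10 AMPA receptor auxiliary subunits, of which 5 had a positive value. Ppp1r9a stood at 7.27 FPKM ± 3.69 in F2 IUO and Grm5 at 7.69 ± 4.21 (adjusted p = 0.227 and 0.235, limma). Striatum markers were lower in F2 IUO for 15 of 16 genes, 8 with an unadjusted p under 0.05. With thalamus markers as a covariate, the adjusted p of Dlg2 was 0.0924 and that of Shank3 0.0930 (limma), the lowest of their 17 alternative fits. In that fit 3701 of 16916 genes had an unadjusted p under 0.05, against 2537 without a covariate. Dlg1, Dlg2, Shank3 and Homer1 kept that level in 17, 16, 17 and 15 of 17 alternative fits. The fit with striatum markers as a covariate was among these for each of them, and 3750 genes reached that level in it.

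The saline and the PNO groups were compared between generations in the same way. Between F2 SAL and F1 SAL, 0 of 9 scaffold genes had an unadjusted p under 0.05 in limma, against 8.48% of all genes, and the libraries of 0 were separate, against 4.98%. The share of all genes with an adjusted p under 0.05 was 0.0343%. The largest differences were those of Dlg2 (-0.38, SE 0.20) and Shank1 (0.36, SE 0.29), and upper-quartile rescaling took Shank2 from 0.04 to -0.01 and the split of all genes from 3.78% higher and 4.69% lower to 2.57% and 6.55%. Between F2 PNO and F1 PNO, 0 of 9 had an unadjusted p under 0.05, against 4.76% of all genes, and 0 were separate, against 3.34%, while 0.0288% of all genes had an adjusted p under 0.05. Upper-quartile rescaling moved their split from 2.13% higher and 2.63% lower to 3.05% and 2.30%. Thalamus markers (5 of 10) and pan-neuronal markers (5 of 9) were lower in F2 PNO at an unadjusted p under 0.05. Without F2 PNO replicate 1, Dlg1 had an unadjusted p under 0.05 and was higher in F2 PNO (0.32, SE 0.13, adjusted p = 0.934, limma), against 5.22% of all genes in that fit. The 7 scaffold genes lower in F2 PNO with that library became 3, while the share of all genes that were higher went from 41.3% to 56.1%.

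Whether an exposure effect differed between the generations was tested as an interaction, the F2 difference minus the F1 difference. For IUO against SAL all 9 values were negative under each of the 3 scalings, while 41.4% of all genes had a positive value as deposited. The median of the 9 genes was -0.38 against -0.08 for all genes, and -0.57 without F2 SAL replicate 4. Only Shank3 had an unadjusted p under 0.05 (-0.68, SE 0.21, adjusted p = 0.924, limma), against 5.15% of all genes and 0.0% at an adjusted p under 0.05, and it kept that level in 25 of 25 alternative fits. The count of 1 was 4 without F1 SAL replicate 4, 3 without F2 IUO replicate 2, and 2 without F1 SAL replicate 2, F1 IUO replicate 1, F2 SAL replicate 4 or F2 IUO replicate 3. The share of all genes in those fits is not given here, so the rise cannot be read as one of the scaffold genes. The split of all genes was 1.62% positive and 3.53% negative, and 1.93% and 2.68% with upper-quartile rescaling. For PNO against SAL, 0 of 9 were at that level in limma, against 4.06% of all genes and 0.0% adjusted, and upper-quartile rescaling took Dlg3 from -0.07 to 0.02, Dlg4 from -0.07 to 0.03 and the split of all genes from 1.61% positive and 2.45% negative to 2.90% and 1.67%. Without F2 PNO replicate 1, Dlg2 (0.75, SE 0.34) and Dlg1 (0.44, SE 0.18) had an unadjusted p under 0.05, with adjusted p of 0.705 and 0.673 (limma), 2 of 9 against 7.01% of all genes in that fit.

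For IUO against PNO, Dlg1 had an unadjusted p under 0.05 with all libraries (-0.65, SE 0.24, adjusted p = 0.833, limma), against 5.76% of all genes and 0.0% adjusted. The split of all genes was 3.04% positive and 2.72% negative, and 2.19% and 3.47% with upper-quartile rescaling. Without F2 PNO replicate 1, 5 of 9 scaffold genes were at that level, all negative, against 12.2% of all genes in that fit. Dlg1 was then at -0.82 (SE 0.19, adjusted p = 0.277, limma) and Dlg2 at -1.21 (SE 0.38, adjusted p = 0.303, limma). Homer1 stood at -0.86, Shank3 at -0.64 and Dlg4 at -0.40, with adjusted p of 0.358, 0.315 and 0.397 (limma).

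The scaffold genes moved with each other to unequal degrees over the 24 libraries. Over 36 pairs the median Pearson r of log2(FPKM + 0.1) was 0.607, and it was 0.388 without F2 PNO replicate 1. Dlg2 and Homer1 were the closest pair (r = 0.940, Spearman rho = 0.883, and r = 0.899 without that library). Homer1 and Shank2 followed (r = 0.871, and 0.725 without it). Dlg3 had the weakest relations, with r between 0.101 and 0.331 to the other 8 genes, and between 0.0532 and 0.395 without that library. With each value taken from its group mean and that library left out, Dlg2 and Homer1 were still at r = 0.919, so the pair also moved together within groups. These values are descriptions, since libraries share the tissue makeup and the scaling of their library.

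**Figure D4:**
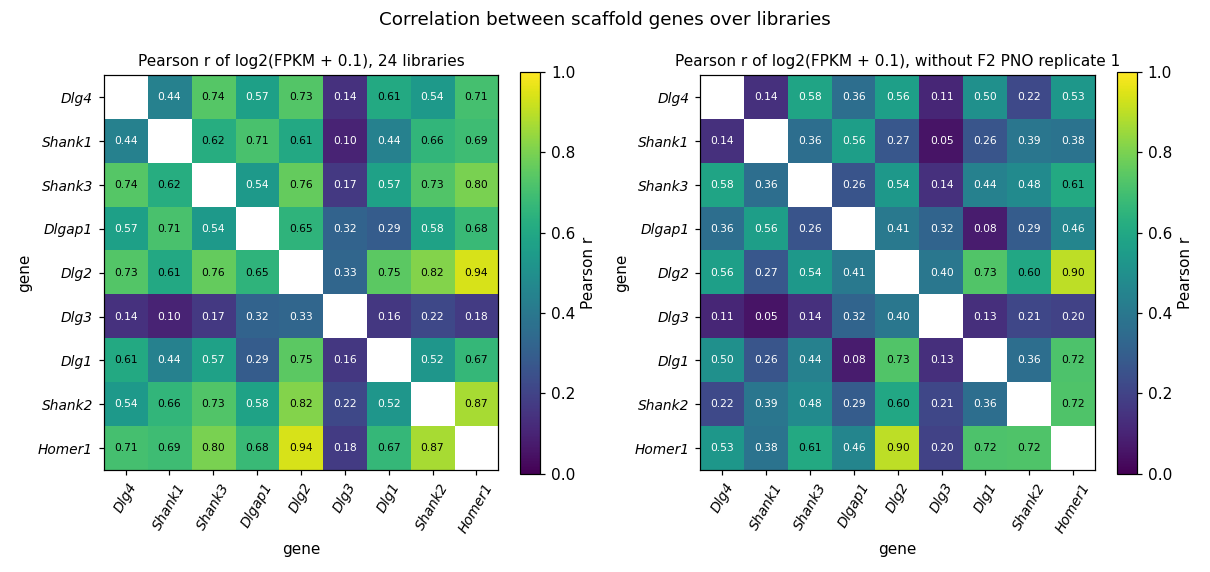
Pearson r between the scaffold genes (both axes) over 24 libraries on the left and over the 23 left without F2 PNO replicate 1 on the right. Brighter squares are higher r. Dlg2 and Homer1 are at 0.94 and 0.90, and the row of Dlg3 is dark on both sides.

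The genes most like each scaffold gene were taken as the 3 highest r among 11939 named genes with a mean FPKM of at least 1. For Dlg2 they were Nav3 (r = 0.957), the adenylyl cyclase Adcy1 (0.952) and the ryanodine receptor Ryr2 (0.951). For Dlg4 they were Agap2 (0.905), Jph4 (0.899) and Pnma1 (0.890), and for Dlg1 Ston2 (0.888), Tcf20 (0.861) and Epb41l1 (0.861). For Shank3 they were Srcin1 (0.929), Atxn1 (0.913) and Chrnb2 (0.905), for Shank1 Kcnj3 (0.864), Ust (0.835) and Paqr8 (0.833), and for Shank2 Tmem63c (0.899), Celsr3 (0.898) and Cacna1a (0.892). Homer1 was closest to Edem3 (0.970), Negr1 (0.967) and Actr2 (0.962), and Dlgap1 to Kcnj6 (0.903), Pex5l (0.899) and Prdm8 (0.899). Dlg3 again differed, since its closest genes, Xpa (0.691), Cbx5 (0.616) and Fgfr1op2 (0.615), were less alike. When F2 PNO replicate 1 was left out, r to the same 3 genes was between 0.822 and 0.850 for Homer1, 0.888 and 0.927 for Dlg2, 0.709 and 0.771 for Shank1, 0.768 and 0.826 for Shank2, and 0.824 and 0.869 for Shank3. It was between 0.830 and 0.881 for Dlg1, 0.616 and 0.697 for Dlg3, 0.847 and 0.875 for Dlg4, and 0.846 and 0.862 for Dlgap1.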

How the data were processed

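NAc RNA of 24 pups was sequenced, 4 in each of 6 groups. The authors merged the assembled transcriptomes with a script of the sequencing provider, estimated FPKM per gene with StringTie and deposited these values without rescaling between libraries. HISAT2, SAMtools and edgeR are also named in the submitters' processing notes, without versions, and the genome build is not given in the sources used here. Counts were not analysed here, and read depth cannot be taken from FPKM.

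Linear models were fitted to log2(FPKM + 0.1) with limma 3.58.1 (lmFit and trended eBayes, R 4.3.3). A gene was tested where 4 or more libraries of the comparison reached 0.1 FPKM, and p was adjusted by Benjamini-Hochberg across every gene tested. Exact permutation tests were two-sided. The fit was tested on simulated data. p-values measure the spread between pups of separate litters. Alternatives were a pseudocount of 1, no filter, an FPKM of at least 1, upper-quartile and median-of-ratios rescaling, 1 fit of 24 libraries, a replicate block, thalamus or striatum markers as a covariate, and leaving out each library. The 9 genes, the gene lists and the marker lists were chosen with earlier results of these data known. All 9 genes are described, up to 3 list genes with the smallest p are named per comparison (applied within each list), the 3 most correlated genes are named for each, and pairs of gene and comparison with an unadjusted p under 0.05 were followed through the alternatives. Other steps used Python 3.11.15, pandas 2.3.3, numpy 2.4.6, scipy 1.17.1 and, for figures, matplotlib 3.10.9. Promoters came from RefSeq, build GRCr8.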

Additional observations from a re-analysis of the deposited data

Results flagged for a closer look

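Each of the 9 genes was examined in each of the 6 groups for a library far from the other 3, by the gap to the nearest other library divided by the range of the group (Dixon's ratio, at its 95% critical value). In all, 4 of 54 sets passed, where about 1 in 20, or 2.7, would by chance. Homer1 in F2 SAL replicate 4 stood at 5.04 FPKM, with the other 3 libraries between 8.13 and 8.15 (ratio 0.9936). Shank2 in the same library stood at 7.04 FPKM, with the others between 12.1 and 12.6 (ratio 0.9167). Dlg1 in F2 SAL replicate 1 stood at 12.1 FPKM, with the others between 10.96 and 11.1 (ratio 0.8596). Dlgap1 in F2 IUO replicate 2 stood at 26.8 FPKM, with the others between 21.8 and 22.4 (ratio 0.8705).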

How the results depend on the processing

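The count of scaffold genes with an adjusted p under 0.05 was 0 in limma in all 12 comparisons under every alternative. None of the 17 followed pairs of gene and comparison changed sign. These pairs were picked by their unadjusted p, and the alternatives reuse most of the same libraries, so a change of sign was unlikely from the start. The median log2 fold change of the 9 genes changed sign in 5 comparisons. It went from -0.10 to 0.02 (F1 PNO against F1 SAL, without F1 SAL replicate 4), from 0.13 to -0.04 with upper-quartile rescaling and to -0.29 without F2 PNO replicate 1 (F2 IUO against F2 PNO), from -0.22 to 0.08 (F2 PNO against F1 PNO, without F2 PNO replicate 1), from 0.04 to -0.01 with upper-quartile rescaling and between -0.10 and 0.14 leaving out 1 library (F2 SAL against F1 SAL), and from -0.17 to 0.05 without F1 PNO replicate 2 and 0.01 without F2 PNO replicate 2 (generation difference of IUO against PNO). Of 153 alternative fits of these pairs, 122 kept an unadjusted p under 0.05 and 31 did not, and of 152 fits that left out 1 library 124 did and 28 did not. Counts at an unadjusted p under 0.05 moved by over 1.5 times as follows, and the cause was not tested. With upper-quartile rescaling they were 1 (F1 IUO against F1 SAL), 3 (F1 IUO against F1 PNO, median log2 fold change 0.24 in place of 0.36) and 1 (F2 IUO against F2 PNO), and with median-of-ratios rescaling 1 (F1 IUO against F1 SAL). With 24 libraries in 1 fit they were 0 (each F1 group against F1 SAL, and F2 IUO against F2 SAL), 3 (F1 IUO against F1 PNO), 2 (F2 PNO against F2 SAL) and 2 (F2 IUO against F1 IUO). With striatum markers as a covariate they were 1 (F1 IUO against F1 SAL), 0 (F1 PNO against F1 SAL), 3 (F1 IUO against F1 PNO), 2 (generation difference of IUO against SAL) and 0 (that of IUO against PNO), and with thalamus markers 0 (F1 PNO against F1 SAL). With a pseudocount of 1 the count for F2 IUO against F2 SAL was 1. Replicate numbers were not treated as pairs. Same-numbered libraries, each taken from its group mean, did not all correlate above 0.1 in any comparison, but that rule cannot exclude a pairing. In F1 IUO against F1 PNO their r was 0.103, 0.167, 0.157 and -0.059. A replicate block moved 1 count by over 1.5 times, to 1 for F2 IUO against F2 SAL. With it 3 of the 17 pairs no longer had an unadjusted p under 0.05, namely Dlg1 in that comparison, Dlg2 in F1 IUO against F1 SAL and Dlg1 in F1 IUO against F1 PNO. Leaving out 1 library gave 1 to 5 for F1 IUO against F1 SAL, 0 to 3 for F1 PNO against F1 SAL, 3 to 5 for F1 IUO against F1 PNO, 1 to 2 for F2 IUO against F2 SAL, 0 to 1 for F2 PNO against F2 SAL, F2 IUO against F2 PNO and F2 PNO against F1 PNO, and 1 to 4, 0 to 2 and 1 to 5 for the generation differences of IUO against SAL, PNO against SAL and IUO against PNO. No share of all genes stands beside these counts, so they describe the fits and not the scaffold genes alone. Read depth is unknown, so the precision of the lowest genes, Homer1 and Shank2, cannot be given.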
